A study of Mus musculus with 6 samples.

Results

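The tumour necrosis factor (TNF) superfamily of ligands and its receptors was followed in a mouse model of pre-B leukaemia with and without a Cre recombinase able to act on floxed Bcor. Members were genes whose symbol starts with Tnfsf or Tnfrsf and a digit, together with Tnf, Lta, Ltb, Ltbr, Ngfr, Edar and Eda. Of 19938 genes measured, 36 were members: 13 ligands and 23 receptors. All 36 matched the GRCm38.p6 gene table by gene ID, and each had 1 probe set. Tnfsf12 and Tnfsf13 were read only by a probe set that names several genes and were not analysed here.

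The cells came from the C57Bl/6 strain, had been transformed by BCR-ABL1, and carried a floxed Bcor gene on the single X chromosome (Bcor fl/Y). The 3 arrays of the Cre group came from cells transduced with PMIP-CRE-ERT2, which encodes a Cre recombinase activated by tamoxifen. The 3 control arrays came from cells transduced with PMIP-ERT2, without Cre. Cells of both groups were puromycin resistant and had received 4OH-tamoxifen at 0.5 micromolar for 2 days. The groups are called Cre-ERT2 and ERT2 below. No arrays of Cre-ERT2 cells without the floxed allele were analysed here, so effects of Bcor loss and of Cre activity cannot be told apart. Separate cultures are not named for the replicates, so the spread behind each p-value is that of these samples and may be technical only.

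Ligands of this superfamily are trimers, mostly made as membrane proteins, and they cluster receptors on the target cell. Receptors with a cytoplasmic death domain can start apoptosis, while most others recruit TRAF adaptor proteins and activate NF-kB. In the B lineage the best-known roles are survival of maturing B cells through the receptor for BAFF (Tnfrsf13c) and the building of lymphoid tissue by lymphotoxin, which B cells display to stromal cells.

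Values are log2 expression per probe set, and a fold change is Cre-ERT2 minus ERT2 on that scale. Levels of different probe sets were not compared as amounts of RNA, because probes differ in brightness. Sums of linear signal over marker lists are compared between arrays only, and the brightest probe sets weigh most in them. The 6 arrays had median log2 values between 8.84 and 8.87 over the genes tested. Bcor was lower in the Cre-ERT2 arrays (log2 fold change -0.96, SE 0.0491, limma adjusted p = 2.11e-05), and its single probe set is not known to lie in the deleted part. The 9 measured markers of the B lineage had mean log2 levels from 9.34 to 14.25. Of these, 2 were called lower, Il7r (-0.60) and Rag1 (-0.38). Of the other 7, none was called and 1 lay below 0 (Ebf1, -0.14), and the median of the list was 0.028. Summed linear signals of the list were 75017 to 75828 in ERT2 and 72817 to 73982 in Cre-ERT2. T cell markers summed to 6125 to 6579 in ERT2 and 7065 to 7251 in Cre-ERT2, with Cd2 (0.33) and Cd28 (0.39) called higher of 10. Of the other 8 T cell markers none was called and 6 lay below 0, Cd4, Cd3d and Cd3e among them. At an unadjusted limma p under 0.05, Lat (0.13) was higher, and Cd4 (-0.16) and Cd3d (-0.14) were lower. The median of the list was -0.048. Myeloid markers summed to 2792 to 2922 and 3044 to 3114, with Lyz2 (0.45) called higher of 10. Of the other 9 myeloid markers 7 lay below 0, and 3 of these (S100a8, Elane and Csf1r, from -0.13 to -0.10) had an unadjusted p under 0.05; the median of the list was -0.036. Dendritic cell markers summed to 1900 to 1941 and 2186 to 2332, with Flt3 (0.56) called higher of 6. The other 5 dendritic cell markers all lay below 0, from -0.20 to -0.010, and none of them was called, so the higher sum came from Flt3 alone. Natural killer cell markers summed to 1170 to 1202 and 1093 to 1154, with Ncr1 (-0.23) called lower of 7 and a list median of -0.083. For comparison, the median over all genes was -0.037, and limma called 4.05% of all genes higher and 2.98% lower. None of 9 stromal markers (3395 to 3578 and 3335 to 3402) and none of 3 erythroid markers (894 to 923 and 891 to 946) was called by limma, with 2 stromal markers and 0 erythroid ones at an unadjusted p under 0.05. Array values have no true zero and detection limits were not used here, so no marker could be called absent. The part of these shifts in the results on the TNF superfamily was not tested.

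The threshold for a call was a limma p below 0.05 after Benjamini-Hochberg adjustment over the whole table of genes. Across the superfamily, 9 of 36 members (25.0%) were called, against 7.03% of all genes. Of these, 6 were higher in Cre-ERT2 (16.7%, against 4.05% of all genes) and 3 were lower (8.33%, against 2.98%). The median log2 fold change of the members was 0.0082, against -0.037 over all genes. The members that rose were the ligands Ltb, Lta and Tnf and the receptors Tnfrsf13c, Tnfrsf9 and Tnfrsf19. Those that fell were Tnfrsf1a, Tnfrsf22 and Tnfrsf26.

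**Figure D1:**
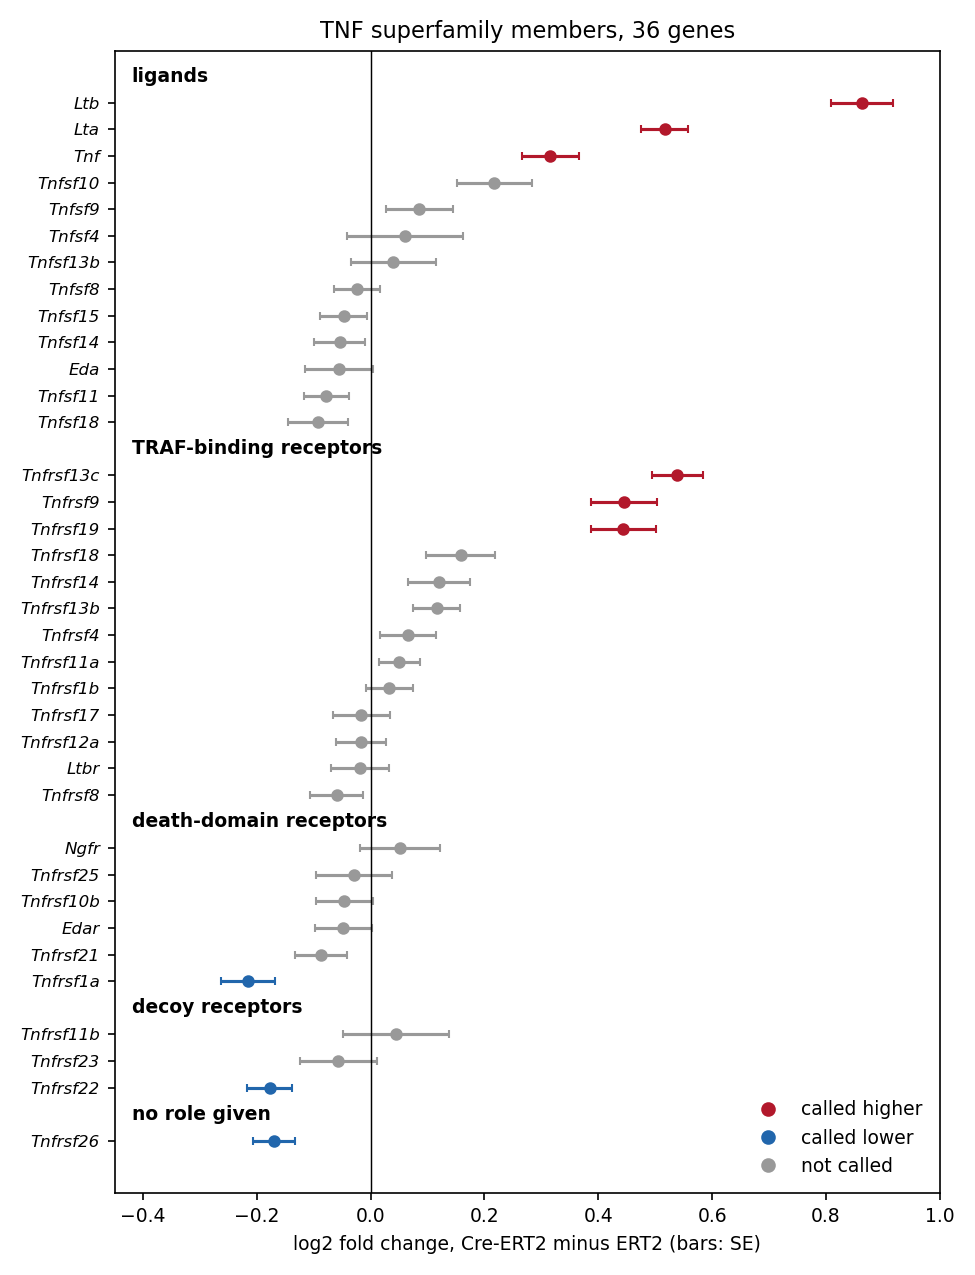
Log2 fold change (Cre-ERT2 minus ERT2, x axis) of the 36 members, grouped by role, with bars for the standard error. Ltb, at 0.86, lies farthest to the right, 5 other members lie between 0.32 and 0.54, and the 3 called lower lie between -0.22 and -0.17.

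The 3 ligands that rose, of 13 measured (23.1%, against 4.05% of all genes), are neighbours in the genome, in the order Ltb, Tnf and Lta, inside the class III region of the major histocompatibility complex. Ltb encodes lymphotoxin beta, the membrane anchor that holds lymphotoxin alpha on the cell surface. Lta encodes lymphotoxin alpha, which is secreted as a homotrimer that binds the TNF receptors or is displayed in a heterotrimer with lymphotoxin beta. Tnf encodes the inflammatory cytokine itself. The 250 bases before the annotated start of each of these genes are shown because the genes are adjacent and rose together, and a window of Tnfrsf9, which also rose, is shown for its motif matches. Capitals mark matches to either of 2 motifs, searched on both strands: an NF-kB motif, GGGNNTTTCC, and the core shared by STAT factors and BCL6, TTCNNNGAA. Sequences are from RefSeq on GRCm38.p6, 5′ to 3′ on the gene's strand.

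Ltb, chr17:35194257-35194506 (plus strand): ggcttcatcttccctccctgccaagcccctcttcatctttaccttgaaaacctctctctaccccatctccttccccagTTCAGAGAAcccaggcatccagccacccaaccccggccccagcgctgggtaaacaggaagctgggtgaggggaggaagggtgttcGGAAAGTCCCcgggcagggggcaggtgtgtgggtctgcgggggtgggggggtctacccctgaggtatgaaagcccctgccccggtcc

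Tnf, chr17:35202008-35202257 (minus strand): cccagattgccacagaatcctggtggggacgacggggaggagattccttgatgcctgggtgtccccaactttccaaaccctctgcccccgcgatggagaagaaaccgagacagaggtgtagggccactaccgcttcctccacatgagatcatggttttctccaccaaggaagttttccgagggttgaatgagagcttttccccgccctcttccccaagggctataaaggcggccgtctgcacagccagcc

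Lta, chr17:35205352-35205601 (minus strand): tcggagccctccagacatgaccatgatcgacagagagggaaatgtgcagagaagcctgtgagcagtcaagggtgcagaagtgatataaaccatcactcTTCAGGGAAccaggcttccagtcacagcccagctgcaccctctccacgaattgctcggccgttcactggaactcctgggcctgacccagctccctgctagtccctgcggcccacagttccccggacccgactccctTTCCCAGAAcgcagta

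Tnfrsf9, chr4:150927749-150927998 (plus strand): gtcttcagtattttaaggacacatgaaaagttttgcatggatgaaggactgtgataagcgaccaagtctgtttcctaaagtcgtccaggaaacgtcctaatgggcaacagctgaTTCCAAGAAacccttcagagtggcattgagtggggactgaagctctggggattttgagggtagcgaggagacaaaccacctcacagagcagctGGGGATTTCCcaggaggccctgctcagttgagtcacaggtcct

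The Ltb window held 1 match to the NF-kB motif, GGAAAGTCCC on the strand shown, starting 87 bases before the start, and 1 match to the STAT and BCL6 core, TTCAGAGAA, at 172 bases. The Lta window held 2 matches to the core, TTCAGGGAA and TTCCCAGAA, at 152 and 16 bases. Neither motif was found in the Tnf window. The Tnfrsf9 window held GGGGATTTCC at 43 bases and TTCCAAGAA at 136 bases before its start, and a further annotated window of Tnfrsf9 held neither motif. The motifs did not overlap each other in these windows. Promoter windows were found for 30 of 36 members. The NF-kB motif was in 3 of those 30 genes, against 1.65% of all 27025 genes with a window, and the STAT and BCL6 core was in 7 of 30, against 8.13%. Of the 7 called members with a window, 2 held the NF-kB motif (Ltb and Tnfrsf9) and 4 held the core (Ltb, Lta, Tnfrsf9 and Tnfrsf1a). A match describes letters in the window and does not show binding.

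Ltb had log2 values of 10.07, 10.03 and 10.23 in ERT2 replicates 1 to 3 and 11.00, 10.98 and 10.94 in Cre-ERT2 replicates 1 to 3. Every Cre-ERT2 array lay above every ERT2 array, and the nearest arrays of the 2 groups were 0.71 apart. The means were 10.11 ± 0.104 and 10.97 ± 0.0297 (SD, n = 3 each), a 1.82-fold rise (log2 fold change 0.86, SE 0.0551, limma adjusted p = 5.02e-05). By size of rise Ltb ranked 29 of all 19938 genes.

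Lta stood at 12.52, 12.50 and 12.61 in the ERT2 arrays and at 13.06, 13.07 and 13.05 in the Cre-ERT2 arrays. The groups did not overlap, and the Cre-ERT2 arrays lay close together (SD 0.0113, against 0.0587 in ERT2). This was a 1.43-fold rise (log2 fold change 0.52, SE 0.0419, limma adjusted p = 0.000194).

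Tnf was at 11.83, 11.77 and 11.91 in ERT2 and at 12.21, 12.16 and 12.10 in Cre-ERT2. Its groups were also apart, by 0.18 between the nearest arrays. The rise was 1.24-fold (log2 fold change 0.32, SE 0.0499, limma adjusted p = 0.00654). The 95% interval of the Ltb change, 0.74 to 0.99, lay above those of Lta (0.42 to 0.61) and Tnf (0.20 to 0.43), and the latter 2 overlapped slightly.

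The genes on either side of the lymphotoxin and TNF genes were not called. On the Ltb side, Lst1 was at 0.015 (SE 0.0513), Aif1 at 0.099 (SE 0.0509) and Prrc2a at 0.068 (SE 0.0455). On the Lta side, Nfkbil1 was at -0.0027 (SE 0.0607), Atp6v1g2 at -0.011 (SE 0.0481) and Ddx39b at -0.024 (SE 0.0426). Adjusted p for these 6 genes by limma lay between 0.283 (Aif1) and 0.984 (Nfkbil1). The 3 genes that rose thus formed a block of adjacent genes whose measured flanks did not pass the test.

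**Figure D2:**
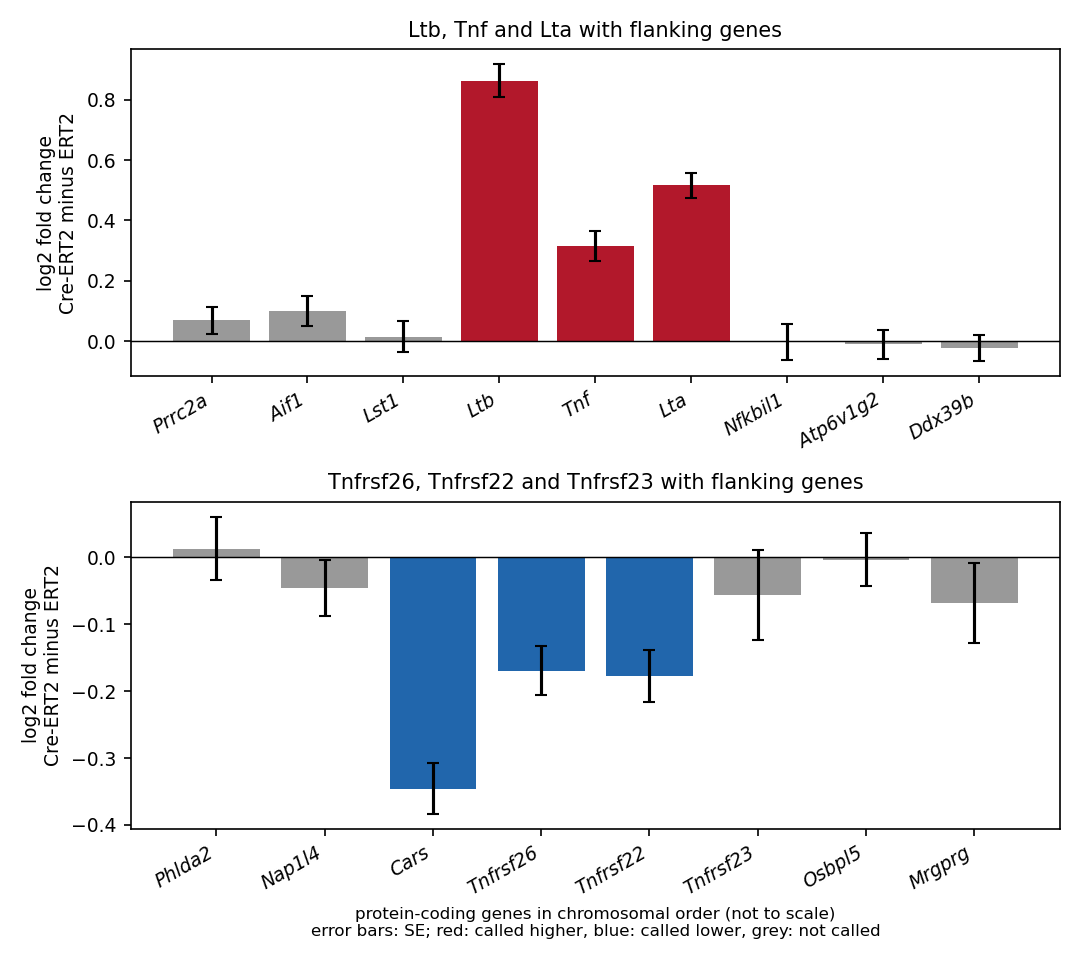
Log2 fold change (y axis, bars SE) of protein-coding genes in chromosomal order around Ltb, Tnf and Lta (top) and around Tnfrsf26, Tnfrsf22 and Tnfrsf23 (bottom), spacing not to scale. Ltb, Tnf and Lta reach 0.86, 0.32 and 0.52 while their 6 flanking genes lie between -0.024 and 0.099. In the bottom panel Cars, at -0.35, is the lowest.

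Among the other 10 ligands none was called by limma at the adjusted threshold; 1 of them, Tnfsf10, had an unadjusted p under 0.05. Tnfsf10 encodes TRAIL, a ligand that triggers apoptosis through death receptors. It was at 7.81, 7.81 and 7.88 in ERT2 and at 8.18, 8.07 and 7.91 in Cre-ERT2, and Cre-ERT2 replicate 3 lay only 0.032 above the highest control. Its log2 fold change was 0.22 (SE 0.0652, limma adjusted p = 0.0900), and without Cre-ERT2 replicate 3 it was 0.29 (adjusted p = 0.0160). With any other array left out it was 0.16 to 0.24 and not called (limma adjusted p from 0.148 to 0.236). Tnfsf11, which encodes the osteoclast factor RANKL, was at -0.078 (SE 0.0402, adjusted p = 0.289). Its Cre-ERT2 arrays, 11.47, 11.41 and 11.46, all lay below its ERT2 arrays, 11.54, 11.48 and 11.55, by as little as 0.0079.

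The remaining 8 uncalled ligands spanned -0.092 to 0.086. They were the costimulatory ligands Tnfsf9 (0.086), Tnfsf4 (0.060), Tnfsf8 (-0.025), Tnfsf15 (-0.048), Tnfsf14 (-0.055) and Tnfsf18 (-0.092), the B cell survival factor BAFF (Tnfsf13b, 0.040) and ectodysplasin (Eda, -0.056), which shapes hair and teeth. Their 95% intervals reached from -0.21 to 0.29 in all, so small changes in either direction could not be resolved with 3 arrays a group. Tnfsf4 was the least precise ligand, with ERT2 arrays from 6.75 to 7.08 (SE of its fold change 0.102).

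Of 13 receptors that signal through TRAF proteins, 3 rose (23.1%, against 4.05% of all genes) and 0 fell (against 2.98%). Their median was 0.066, against -0.037 over all genes. Tnfrsf13c, the BAFF receptor that keeps maturing B cells alive, was at 12.34, 12.20 and 12.30 in ERT2 and at 12.79, 12.85 and 12.82 in Cre-ERT2. No arrays of the groups overlapped, and the gap between them was 0.45. This was a 1.45-fold rise (log2 fold change 0.54, SE 0.0453, limma adjusted p = 0.000226).

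Tnfrsf9 encodes CD137, a costimulatory receptor best known on activated T cells. Its values were 8.82, 8.75 and 8.96 in ERT2 and 9.35, 9.29 and 9.24 in Cre-ERT2. All Cre-ERT2 arrays were higher, and the log2 fold change was 0.45 (SE 0.0585, limma adjusted p = 0.00262). The chromosomal neighbours Park7 (-0.0038) and Per3 (-0.055) were not called, while Errfi1, the gene beyond Park7 and an inhibitor of the EGF receptor, rose by 0.23 (SE 0.0391, limma adjusted p = 0.00836).

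Tnfrsf19 encodes TROY, a receptor known from skin, hair follicles and the nervous system. It was at 10.13, 10.22 and 10.24 in ERT2 and at 10.54, 10.64 and 10.74 in Cre-ERT2. The groups were 0.30 apart at their nearest arrays, and the rise was 0.44 (SE 0.0570, limma adjusted p = 0.00233).

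**Figure D3:**
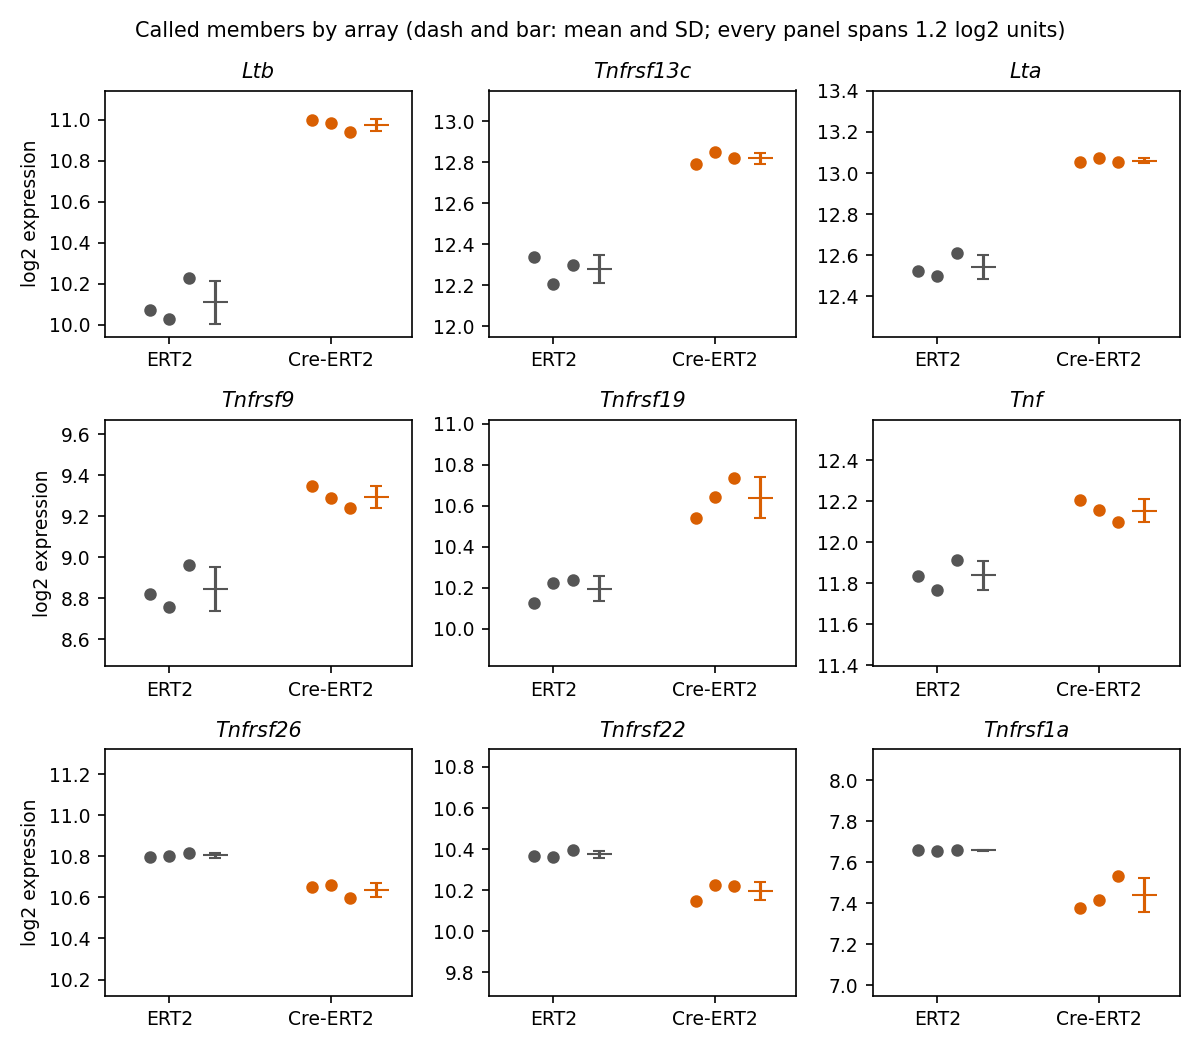
Log2 expression (y axis) of the 9 called members on each of the 3 ERT2 and 3 Cre-ERT2 arrays, with the group mean and SD beside the points. Every panel spans the same range, so that the steps in Ltb (0.86) and Tnfrsf26 (-0.17) can be compared by eye.

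The other receptors for BAFF and APRIL were not called. Tnfrsf13b, which encodes TACI, was at 11.56, 11.56 and 11.61 in ERT2 and at 11.67, 11.65 and 11.75 in Cre-ERT2. The arrays of the 2 groups did not overlap, but the log2 fold change of 0.12 (SE 0.0417) did not pass (limma adjusted p = 0.144). Tnfrsf17, which encodes the plasma cell receptor BCMA, was at -0.016 (SE 0.0495, 95% interval -0.13 to 0.097). Tnfrsf18, which encodes the costimulatory receptor GITR, was at 9.45, 9.43 and 9.66 in ERT2 and at 9.68, 9.68 and 9.66 in Cre-ERT2. ERT2 replicate 3 lay 0.0022 below the lowest Cre-ERT2 array. The change was 0.16 on the log2 scale with an SE of 0.0607 (limma adjusted p = 0.165). Without ERT2 replicate 3 it became 0.23 (limma adjusted p = 0.0184). With any other array left out it was 0.12 to 0.16 and not called (limma adjusted p from 0.194 to 0.372).

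The remaining 7 uncalled receptors of this class ranged from -0.060 to 0.12. Tnfrsf14, a receptor for LIGHT, was at 0.12 (SE 0.0541), Tnfrsf4, the costimulatory receptor OX40, at 0.066 and Tnfrsf11a, the receptor for RANKL, at 0.050. Tnfrsf1b, the TNF receptor without a death domain, was at 0.033 (SE 0.0416), Tnfrsf12a, the receptor for TWEAK, at -0.017, and Tnfrsf8, which encodes CD30, at -0.060. Ltbr, the lymphotoxin beta receptor normally found on stromal and myeloid cells, was at -0.019 (SE 0.0513, 95% interval -0.14 to 0.098).

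Of 6 receptors with a death domain 1 fell (16.7%, against 2.98% of all genes) and 0 rose. Their median of -0.047 was close to the -0.037 of all genes. Tnfrsf1a, the main receptor for soluble TNF, was at 7.66, 7.65 and 7.66 in ERT2 and at 7.38, 7.42 and 7.53 in Cre-ERT2. All 3 Cre-ERT2 arrays were lower, by at least 0.12, and the log2 fold change was -0.22 (SE 0.0476, limma adjusted p = 0.0307). The ERT2 arrays agreed within an SD of 0.0040. Tnfrsf1a was among the dimmest 30% of genes. This call was lost when any array other than Cre-ERT2 replicate 3 was left out (adjusted p from 0.0758 to 0.125). Ltbr, which lies near Tnfrsf1a in the genome, and Scnn1a between them (0.079) were not called.

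The other death-domain receptors were not called. Tnfrsf21, which encodes DR6, was at -0.087 (SE 0.0458, limma adjusted p = 0.297), and Edar, the ectodysplasin receptor, at -0.048 (SE 0.0498, adjusted p = 0.596). Tnfrsf10b, the mouse death receptor for TRAIL, was at -0.046, Tnfrsf25, the receptor for Tnfsf15, at -0.030 and the neurotrophin receptor Ngfr at 0.052. Adjusted p for these 3 by limma lay between 0.615 and 0.819.

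Tnfrsf22, Tnfrsf23 and Tnfrsf26 are adjacent mouse genes of similar sequence, the first pair of which encode decoy receptors for TRAIL, so their probes may read more than 1 of them. Tnfrsf22 was at 10.37, 10.36 and 10.39 in ERT2 and at 10.15, 10.22 and 10.22 in Cre-ERT2, which is -0.18 as a log2 fold change (SE 0.0393, limma adjusted p = 0.0312). Tnfrsf26 was at 10.80, 10.80 and 10.82 in ERT2 and at 10.65, 10.66 and 10.60 in Cre-ERT2, which is -0.17 (SE 0.0372, limma adjusted p = 0.0303). In both genes the groups were 0.14 apart at their nearest arrays. The Tnfrsf22 call was lost with any array except Cre-ERT2 replicate 3 left out (adjusted p from 0.0724 to 0.114). That of Tnfrsf26 ended with each of the 6 arrays left out in turn (adjusted p from 0.0615 to 0.101).

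Tnfrsf23 did not share the call. Its arrays overlapped, from 7.57 to 7.74 in ERT2 and from 7.50 to 7.71 in Cre-ERT2, and its log2 fold change was -0.057 (SE 0.0672, limma adjusted p = 0.646). The gene next to Tnfrsf26, Cars, which encodes the tRNA synthetase for cysteine, fell by 0.35 (SE 0.0377, limma adjusted p = 0.000942). The next gene beyond Cars, Nap1l4, was at -0.046, and Osbpl5 on the Tnfrsf23 side was at -0.0038. Tnfrsf11b, the soluble decoy osteoprotegerin, was at 0.045 (SE 0.0933, limma adjusted p = 0.803). Around all 9 called members, 2 of 29 measured flanking genes outside the family were called, Cars and Errfi1. That is 6.90%, near the 7.03% called over all genes.

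Ligands and receptors were also set side by side as pairs. Both genes were measured in 19 listed pairs. Both were called in 2, only the ligand in 3, only the receptor in 2 and neither in 12. For comparison, 7.03% of all genes were called. The list leaves out some pairs. TRAIL with Tnfrsf22 or Tnfrsf23, Cd40lg with Cd40 and Fasl with Fas were not counted. The pairs with both genes called were Tnf and Tnfrsf1a, and Lta and Tnfrsf1a, in which the ligands rose and the shared receptor fell. Both pairs rest on the call of Tnfrsf1a. That call was lost with a block for replicate number (limma adjusted p = 0.0733) and when any array other than Cre-ERT2 replicate 3 was left out. Ltb rose by 0.86 beside Ltbr at -0.019. BAFF, the ligand of Tnfrsf13c, was at 0.040 (SE 0.0747) beside its receptor at 0.54, and Tnfsf9 at 0.086 (SE 0.0585) beside Tnfrsf9 at 0.45. The pairs share genes and are a description of the same fold changes.

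**Figure D4:**
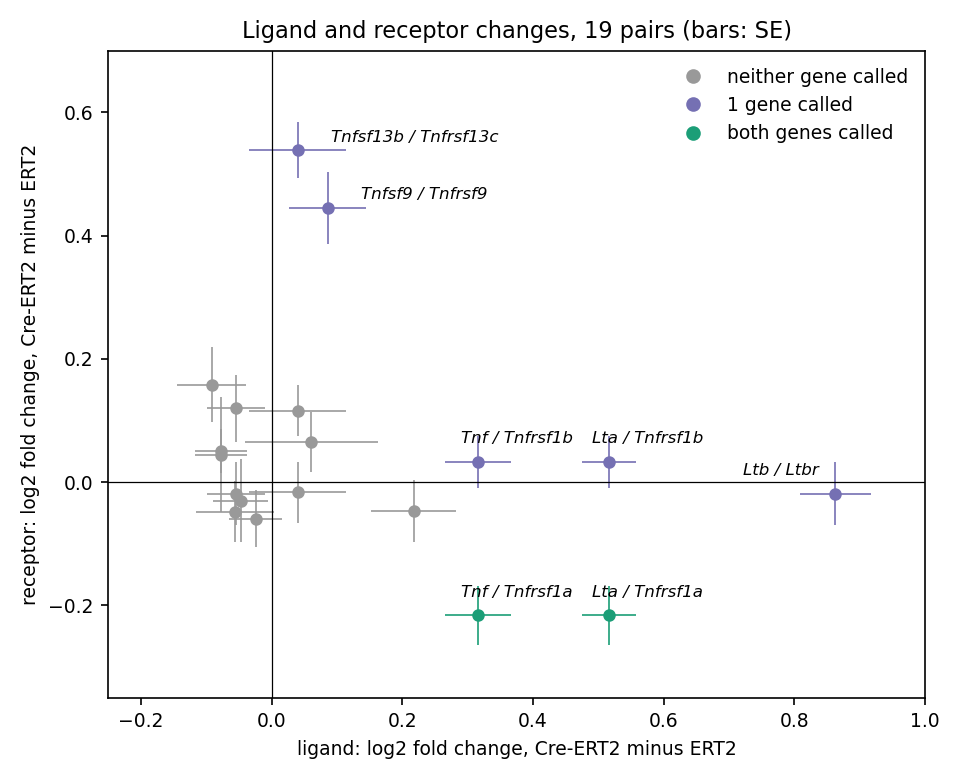
Log2 fold change of the receptor (y axis) against that of the ligand (x axis) for the 19 pairs, with bars for the SE and colours for how many of the 2 genes were called. The called ligands lie along the right at receptor changes between -0.22 and 0.033, and the called receptors Tnfrsf13c (0.54) and Tnfrsf9 (0.45) lie above ligands at 0.040 and 0.086.

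The groups did not overlap for 14 of 36 members (against 29.9% of all genes), 10 of them higher (against 9.56% of all genes) and 4 lower (against 20.3%). The 5 such members that were not called were Tnfsf10, Tnfrsf13b, Tnfrsf18, Tnfrsf11a and Tnfsf11, named after their values were seen. Their gaps were between 0.0022 and 0.045.

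Superfamily genes that carry other symbols gave small changes. Of 8 measured, 3 were called (37.5%, against 7.03% of all genes), 2 of them higher (25.0%, against 4.05%) and 1 lower (12.5%, against 2.98%). Relt rose by 0.23 (SE 0.0567, limma adjusted p = 0.0477) and Cd40, the costimulatory receptor of B cells, by 0.19 (SE 0.0456, adjusted p = 0.0421), while the death receptor Fas fell by 0.19 (SE 0.0469, adjusted p = 0.0483). The calls of Cd40 and Fas were lost with each of the 6 arrays left out in turn, and that of Relt with all but Cre-ERT2 replicate 3. The highest adjusted p over these fits was 0.139, 0.152 and 0.140 for the 3 genes in that order. Quantile normalization also ended the Relt call, and median centring, cyclic loess and an intensity trend ended that of Fas. A block for replicate number ended the calls of Cd40, Relt and Fas (limma adjusted p = 0.116, 0.114 and 0.0947). Cd70, Cd40lg, Eda2r, Cd27 and Fasl lay between -0.11 and 0.011 and were not called.

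Adaptors and enzymes that act just below the receptors were called at about the background rate. Of 30 measured, 2 rose and 0 fell (6.67%, against 7.03% of all genes called), with a median of 0.0094. Fadd, the adaptor that links death receptors to caspase-8, rose by 0.25 (SE 0.0570, limma adjusted p = 0.0340), and Traf5, an adaptor of costimulatory receptors, by 0.17 (SE 0.0388, adjusted p = 0.0343). The Fadd call was lost with any array except ERT2 replicate 3 left out, and that of Traf5 with each array left out in turn (adjusted p up to 0.130 and 0.139). Quantile normalization ended both calls, as did a block for replicate number (limma adjusted p = 0.0881 for Fadd and 0.0797 for Traf5). Cflar, which blocks caspase-8, was at -0.12 (adjusted p = 0.148) and Map3k14, the kinase of the non-canonical NF-kB pathway below Tnfrsf13c and Ltbr, at 0.11 (SE 0.0391, adjusted p = 0.155), both named after their values were seen. Traf3, Ripk1 and Chuk were not analysed here.

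Of 10 measured NF-kB subunits and inhibitors limma called 0 (against 7.03% of all genes), and none had an unadjusted p under 0.05. Nfkb1 was not analysed here. The smallest p-values were those of Nfkbid (0.089, SE 0.0400, adjusted p = 0.229) and Bcl3 (0.071, SE 0.0419, adjusted p = 0.350). The list ran from -0.073 to 0.089, with 95% intervals reaching from -0.18 to 0.18.

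**Figure D5:**
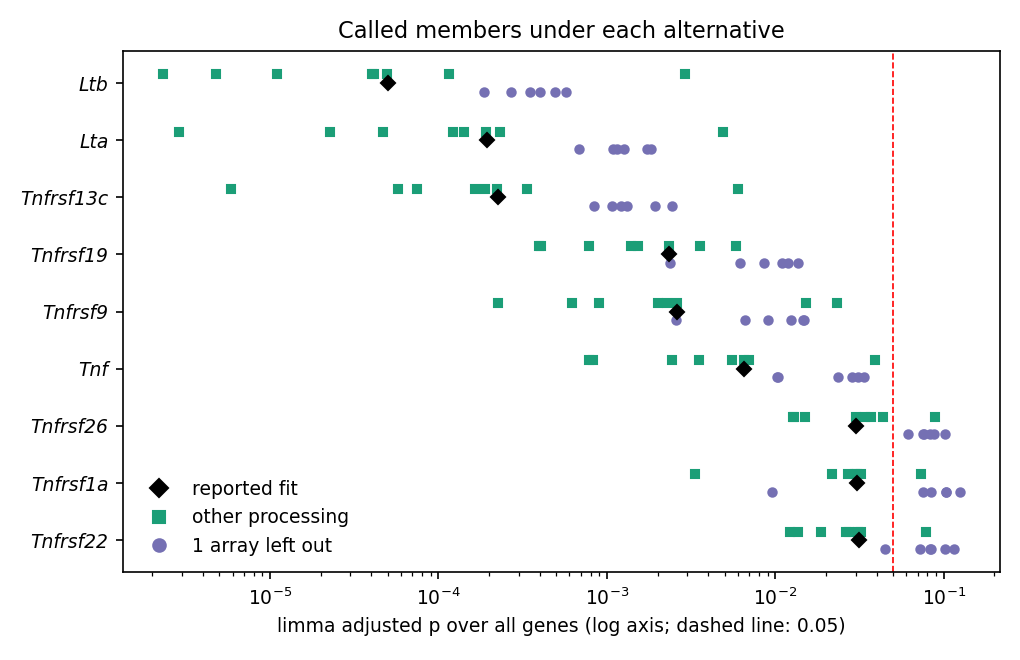
Limma adjusted p over all genes (log x axis, dashed line at 0.05) for each called member under the reported fit, the other processing settings and with 1 array left out. The 6 members that rose stay left of the line at every point, the highest being 0.0391 for Tnf. The 3 that fell cross it when arrays are left out and, among the other settings, with the block for replicate number.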

How the data were processed

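The values deposited by the authors are on a log2 scale, 1 per probe set and array. RMA and Partek 6.5 appear in the submitters' processing notes without a stated role. The background setting is not given in the sources used here. Of 35556 probe sets, 21789 carried 1 gene symbol in the platform annotation, 1621 several and 12146 none. For each gene the single-symbol probe set with the highest mean over the 6 arrays was used, and other probe sets were left out.

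All 19938 genes entered 1 fit with limma 3.58.1 (R 4.3.3; lmFit, then eBayes with no trend) as Cre-ERT2 minus ERT2, with Benjamini-Hochberg adjustment over all of them. The median SE of a log2 fold change was 0.0477, and the number of arrays limits the precision. Intervals are 95% moderated intervals.

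The members, roles, ligand-receptor pairs, pathway lists, marker lists (B lineage, T, natural killer, myeloid, dendritic, stromal and erythroid) and motifs were chosen with earlier results of these data known. Called members are given by array. Of uncalled members, the 2 of smallest p in each role are given with error and p. From each pathway list up to 4 called genes are named, or the 2 of smallest p.

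The settings tried besides were a block for replicate number, an intensity trend, array weights, quantile normalization, median centring, cyclic loess, omission of the dimmest 30% of genes, averaging over a gene's probe sets, and leaving out each array. Gene order came from the GRCm38.p6 table. Python 3.11.15 with matplotlib 3.10.9 and pandas 2.3.3 made the plots.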

Additional observations from a re-analysis of the deposited data

How the results depend on the processing

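The 6 members that rose (Ltb, Lta, Tnf, Tnfrsf13c, Tnfrsf9 and Tnfrsf19) stayed called in the same direction under all 14 alternatives, with adjusted p of at most 0.0391 (Tnf). The count of members called lower was 3, and 0 with the replicate block; with 1 array left out it ranged from 0 to 2. The pathway genes called over the lists of other superfamily symbols, receptor-proximal signalling and NF-kB numbered 5 of 48 in the reported fit. They numbered 2 after quantile normalization, 0 with the replicate block and 0 to 1 with 1 array left out. Over all genes, 7.03% were called in the reported fit and 5.8% after quantile normalization. The share was 4.04% with the replicate block and 3.73% to 6.73% with 1 array left out. The cause of these changes in count was not tested. Deviations of same-numbered arrays from their group means correlated at 0.051, -0.095 and -0.26 over genes, and not every array correlated best with its own number. With 3 arrays a group these deviations depend on each other, so they cannot show whether the replicate numbers pair the arrays. The replicate block left 6 members called, the 6 that rose, and lowered the calls over all genes from 1402 to 805. Over all genes, array weights gave 3339 calls, 39.4% of them higher (57.6% in the reported fit), and cyclic loess 1417, 67.9% higher; the count without 1 array was 743 to 1341. Array weights also called Tnfrsf18 and Tnfsf10 higher (adjusted p = 0.0217 and 0.00968). With the dimmest 30% of genes left out, 28 members were tested and 8 called, against 12.5% of the 13956 genes kept. Tnfrsf1a, Tnfsf10 and Tnfrsf23 were among the members left out. The sign of uncalled Tnfrsf23 and Tnfrsf11b turned with 1 array left out, with ranges of -0.11 to 0.0059 and -0.0087 to 0.14.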
